A study of Xenopus laevis with 6 samples.

Results

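Cadherins are transmembrane proteins whose extracellular repeats bind calcium and hold neighbouring cells together, mostly by binding the same cadherin on the next cell. Type I and type II classical cadherins carry a cytoplasmic tail that binds catenins and through them the actin cytoskeleton. Protocadherins have a different tail and are known for weaker adhesion and for signalling between like cells. Fat and Dachsous (dchs) proteins are giant cadherins, and in mouse Fat4 and Dchs1 bind each other across cell borders and orient tissues. In chick limb buds, N-cadherin (cdh2) is known for its place in the aggregation of mesenchyme before cartilage forms.

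The members described here are the gene IDs that the authors' deposited table names as cdh, pcdh, celsr, fat or dchs genes with an L or S suffix, without cdh5 and cdh13. These were 36 of the 51061 gene IDs counted, and they carried 35 names, because pcdh7.L was the name of 2 gene IDs. They comprised 5 IDs of type I cadherins, 11 of type II cadherins, cdh23.L, 13 of protocadherins and 6 of fat4 or dchs genes, and no celsr gene was among them. *Xenopus laevis* is an allotetraploid frog, and L and S mark the copies of a gene on its long and short chromosome sets. The table pairs names only with 6943 gene IDs, all of which its authors had called different between segments in at least 1 comparison of these same libraries. A cadherin that carries no name is therefore not analysed here, and passing a test below is no independent support for a member. Some named cadherins outside the rule are given beside the members.

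All samples were wild type, untreated hind limb buds of stage 51 tadpoles, cut into distal (limb tip), medial and proximal (body side) segments. Each segment was sampled as 2 biological replicate pools of 30 hind limbs, sequenced as 6 libraries of fragment counts per gene, so each value rests on 2 pools of mixed tissue rather than on single animals. Assigned fragments per library numbered from 10815041 (proximal pool 1) to 35479915 (proximal pool 2). A count of 3, taken as the detection floor, corresponded to 0.125 and 0.203 CPM in the distal pools, 0.110 and 0.109 CPM in the medial pools, and 0.283 and 0.0840 CPM in the proximal pools. CPM values are counts divided by library size and scaled to a common library total, with TMM factors that correct for differences in library composition. The labels of the segments matched known markers: the 8 named copies of 4 distal genes on a list of 5 (hoxa13, hoxd13, fgf8 and lhx9) summed to 1150 CPM in each distal pool, 392 and 357 CPM in the medial pools, and 272 and 213 CPM in the proximal pools. The proximal gene meis2.L measured 26.9 and 30.9 CPM in the distal pools, 59.0 and 61.4 CPM in the medial pools, and 240 and 260 CPM in the proximal pools.

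Most members stood lower at the limb tip than near the body. A minority was higher there, led by both copies of cdh20, a type II cadherin called F-cadherin in *Xenopus*. Of the 36 IDs, 35 passed the filter on low counts, and each of these 35 differed among the 3 segments in edgeR's test of any difference, against 30.3% of all genes tested and 95.4% of the tested genes that carry a name. Between distal and proximal 32 of the 35 (91.4%) passed a Benjamini-Hochberg adjusted p of 0.05 in edgeR, 9 higher and 23 lower in distal. The background was 29.5% of all 27007 genes tested (13.6% higher and 15.9% lower), and 88.3% of the 6912 tested genes with a name (39.3% higher and 49.0% lower). The median distal to proximal log2 fold change was −0.92 over the 35 members, −0.36 over the named genes and 0.00 over all genes tested. In these mixed tissues, fewer cells of a type and less RNA per cell cannot be told apart.

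Between distal and medial, 25 of the 35 were called, 4 higher and 21 lower in distal (71.4%, against 25.0% of all genes tested, 12.1% higher and 12.9% lower, and 76.8% of named genes, 35.6% higher and 41.1% lower). Between medial and proximal, 15 were called, 9 higher and 6 lower in medial (42.9%, against 7.6% of all genes, 2.73% higher and 4.88% lower, and 26.6% of named genes, 9.82% higher and 16.7% lower). Without proximal pool 2, the deeper proximal library, this last count was 7. The largest group, 16 members, was lower in distal than in medial with no call between medial and proximal (45.7%, against 9.95% of all genes tested and 29.8% of named genes). Other combinations held fewer members. Across the inner boundary only, 4 were called, as lower in medial (cdh2.L, cdh2.S, cdh10.L and cdh10.S). They were 11.4%, against 2.41% of all genes tested and 7.38% of named genes. For the cdh10 copies the outer boundary could hardly be tested, with no fragment in distal and at most 2 in a medial pool (SE 2.18 and 1.87). Another 4 were called only across the inner boundary, as higher in medial (dchs2.L, dchs2.S, pcdh1.L and pcdh17.S). They were 11.4%, against 0.815% of all genes tested and 2.58% of named genes. No call at the outer boundary does not mean no difference there. Among the 4, only pcdh17.S had overlapping distal and medial pools, and dchs2.S had a log2 fold change of 0.61 (edgeR adjusted p = 0.0830). The cdh20 copies were higher at each boundary outward (5.71%, against 0.711% of all genes tested and 2.78% of named genes). Lower at each were cdh15.S and pcdh9.L (5.71%, against 1.76% of all and 6.86% of named genes). cdh22.L, pcdh10.L and pcdh7.S peaked in medial (8.57%, against 1.2% of all and 4.47% of named genes). Only cdh3.L and pcdh20.L were higher in distal than in medial with no call across the inner boundary. That was 5.71%, against 10.7% of all genes tested and 30.4% of named genes. As the authors' calls on the same libraries chose which genes carry names, the shares are a description only.

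**Figure D1:**
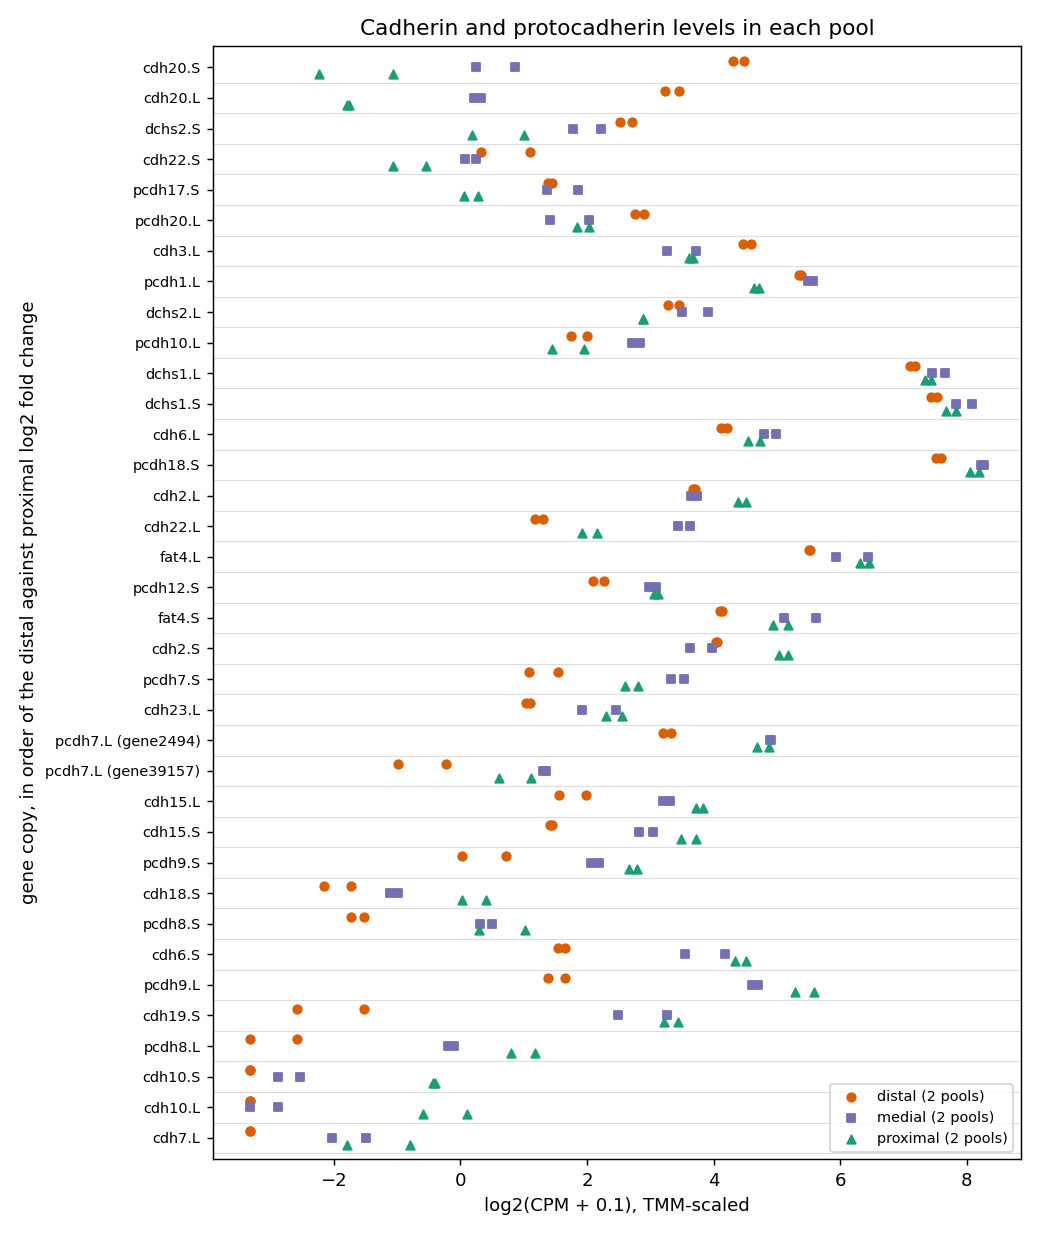
Levels of the 36 cadherin and protocadherin gene IDs in each pool, as log2 of TMM-scaled CPM plus 0.1, with 2 points per segment (circles distal, squares medial, triangles proximal). Rows run from the copy with the highest distal against proximal log2 fold change (cdh20.S, 6.85) down to that with the lowest (cdh10.L), with the untested cdh7.L at the bottom.

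Type I cadherins include the classical adhesion molecules of most tissues. cdh2.S encodes N-cadherin, found on mesenchymal, neural and muscle cells (gene44011, chromosome 6S, 87903815 to 88063985; positions are those of the table of counts, and the sources used here do not name its genome build). It measured 16.3 and 16.5 CPM in the distal pools, 15.7 and 12.2 CPM in the medial pools, and 36.0 and 32.7 CPM in the proximal pools. Both proximal pools lay above all other pools. The distal to proximal log2 fold change was −1.06 (SE 0.13, edgeR adjusted p = 7.87e-05) and the medial to proximal one −1.29 (SE 0.13, adjusted p = 6.94e-05). Distal and medial differed by 0.23 (SE 0.13, edgeR adjusted p = 0.221). That difference was 0.42 with an edgeR adjusted p of 0.0339 without medial pool 1. cdh2.L (gene45941, chromosome 6L) had the same shape with a smaller step, at 12.8 ± 0.138 CPM in distal, 12.8 ± 0.614 CPM in medial and 21.7 ± 1.43 CPM in proximal (SD, n = 2). Its log2 fold change was −0.77 both for distal against proximal (SE 0.11, edgeR adjusted p = 3.76e-04) and for medial against proximal (SE 0.11, adjusted p = 0.00121).

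cdh3.L ran the other way. This type I cadherin is known as C-cadherin in *Xenopus* and as P-cadherin in mammals, where it marks epithelia such as basal epidermis. It stood at 21.9 and 24.0 CPM in the distal pools, 13.1 and 9.51 CPM in the medial pools, and 12.1 and 12.7 CPM in the proximal pools. The distal pools were above all others, while the medial and proximal pools overlapped. The log2 fold change was 0.88 against proximal (SE 0.15, edgeR adjusted p = 9.98e-04) and 1.02 against medial (SE 0.15, adjusted p = 3.95e-04). Epidermal markers moved alongside: of 15 listed genes, 6 were named, as 10 copies, and their summed level was 321 and 324 CPM in the distal pools, 198 and 116 CPM in the medial pools, and 189 and 174 CPM in the proximal pools. Of those 10 copies, 7 were called higher in distal than in proximal, none lower, against 39.3% of named genes and 13.6% of all genes tested called higher. Not called were tp63.L (0.32, edgeR adjusted p = 0.461), tp63.S (0.45, adjusted p = 0.176) and grhl2.S (0.59, adjusted p = 0.115). Medial pool 2 had the lowest level both of cdh3.L and of the marker sum. The part of epidermal cells in the cdh3.L difference was not tested.

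The muscle cadherin cdh15, or M-cadherin, is known from myoblasts and satellite cells. cdh15.S measured 2.63 and 2.57 CPM in the distal pools, 8.14 and 7.0 CPM in the medial pools, and 13.1 and 11.1 CPM in the proximal pools, with no overlap between segments. It was lower in distal than in proximal by a log2 fold change of −2.2 (edgeR, SE 0.18, adjusted p = 3.66e-06), and lower than in medial by −1.54 (SE 0.18, adjusted p = 8.64e-05). The medial to proximal difference of −0.66 (SE 0.15, edgeR adjusted p = 0.0201) lost its call with DESeq2 (adjusted p = 0.0788) and without medial pool 2 or either proximal pool (0.0621 to 0.131). cdh15.L followed closely, at 3.36 ± 0.738, 9.43 ± 0.510 and 13.6 ± 0.705 CPM in distal, medial and proximal, but 57.1% of its exonic length overlaps another annotated gene and fragments in such stretches were not counted, so its level is uncertain. Of 11 muscle markers, 6 were named, as 10 copies, and summed to 14.1 and 4.93 CPM in the distal pools, 18.2 and 19.5 CPM in the medial pools, and 33.4 and 52.2 CPM in the proximal pools. Among these copies myog.L, myog.S and pax7.L had no count in either distal pool, while the other 7 had counts in both, such as myf5.S at 1.92 and 1.62 CPM and pax7.S at 0.0834 and 0.203 CPM. Of the 10 copies, 8 were lower in distal than in proximal and 8 lower than in medial. Of named genes 49.0% and 41.1% were lower, and of all genes tested 15.9% and 12.9%. The copies not called in either were mylpf.L and mylpf.S. mylpf.L had 4.59 and 0.405 CPM in distal, 0.183 and 0.145 CPM in medial, and 3.68 and 13.7 CPM in proximal. mylpf.S had 5.22 and 0.338, 0.44 and 0.653, and 5.67 and 13.9 CPM. Their distal to medial log2 fold changes were 4.03 and 2.48 (edgeR adjusted p = 0.229 and 0.313). The part of muscle cells in the cdh15 difference was not tested.

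Among type II cadherins, typical of mesenchyme and neural tissue, cdh20 had the steepest rise toward the tip of all members. cdh20.S (gene9887, chromosome 6S, 67635862 to 67706751) reached 19.7 and 22.1 CPM in the distal pools, against 1.72 and 1.09 CPM in the medial pools and 0.378 and 0.112 CPM in the proximal pools. cdh20.L (gene5565, chromosome 6L, 82762756 to 82818462) measured 10.9 and 9.32 CPM in distal, 1.06 and 1.16 CPM in medial, and 0.189 and 0.196 CPM in proximal. Segments did not overlap for either copy, and the proximal libraries held 2 to 7 fragments of each. Against proximal the distal log2 fold change was 6.85 for cdh20.S (SE 0.34, edgeR adjusted p = 9.57e-08) and 5.67 for cdh20.L (SE 0.30, adjusted p = 1.28e-07). Most of that rise lay at the outer boundary, with distal to medial changes of 3.88 (SE 0.23) and 3.19 (SE 0.21). The medial to proximal changes were 2.96 (SE 0.46, edgeR adjusted p = 0.00212) and 2.49 (SE 0.38, adjusted p = 0.00168). Without proximal pool 2 these inner changes were 1.89 for cdh20.S and 2.53 for cdh20.L and were not called (edgeR adjusted p = 0.139 and 0.0735).

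cdh6, also called K-cadherin and known from kidney and neural crest, was the most abundant of the named type II genes in medial and proximal. cdh6.S (gene5065, chromosome 6S) had 2.80 and 3.04 CPM in the distal pools, 18.0 and 11.6 CPM in the medial pools, and 20.2 and 22.7 CPM in the proximal pools. The distal pools were far below the rest, with log2 fold changes of −2.90 against proximal (SE 0.23, edgeR adjusted p = 9.07e-06) and −2.35 against medial (SE 0.23, adjusted p = 5.44e-05). Medial against proximal had −0.55 (SE 0.18, edgeR adjusted p = 0.124), but −0.90 with an adjusted p of 9.15e-04 without medial pool 1. cdh6.L (gene127, chromosome 6L) changed much less, at 17.9 ± 0.920 CPM in distal, 29.7 ± 2.64 CPM in medial and 24.8 ± 2.2 CPM in proximal (SD, n = 2). Its distal to medial log2 fold change was −0.73 (SE 0.11, edgeR adjusted p = 6.54e-04). The distal to proximal change of −0.46 (SE 0.11, edgeR adjusted p = 0.0109) was not called without either distal pool or without proximal pool 1 (adjusted p from 0.0532 to 0.0952).

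The cdh22 copies were the only L and S pair with called distal to proximal changes of opposite sign. cdh22, or PB-cadherin, is a type II cadherin described in rat brain and pituitary. cdh22.L (gene40457, chromosome 9_10L) peaked in medial, with 2.17 and 2.36 CPM in the distal pools, 10.7 and 12.3 CPM in the medial pools, and 3.68 and 4.37 CPM in the proximal pools. The medial pools lay above all others, with log2 fold changes of −2.35 for distal against medial (SE 0.18, edgeR adjusted p = 4.02e-06) and 1.47 for medial against proximal (SE 0.17, adjusted p = 2.02e-04). cdh22.S (gene2754, chromosome 9_10S) had 2.04 and 1.15 CPM in the distal pools, 0.954 and 1.09 CPM in the medial pools, and 0.378 and 0.588 CPM in the proximal pools. Its medial pools showed no peak. From distal to proximal the log2 fold change was −0.87 for cdh22.L (SE 0.20, edgeR adjusted p = 0.00665) and 1.63 for cdh22.S (SE 0.40, adjusted p = 0.00896). Each of these lost its call without distal pool 1 (edgeR adjusted p = 0.0819 for cdh22.L and 0.180 for cdh22.S) and without proximal pool 2 (0.113 and 0.0556).

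cdh19.S, known in rat and human from neural crest derivatives and Schwann cell precursors, was nearly undetected at the tip. It measured 0.250 and 0.0675 CPM in the distal pools (6 fragments and 1 fragment), 9.54 and 5.52 CPM in the medial pools, and 10.7 and 9.16 CPM in the proximal pools. The distal log2 fold change was −5.73 against proximal (SE 0.46, edgeR adjusted p = 1.38e-05) and −5.35 against medial (SE 0.47, adjusted p = 3.36e-05). Medial and proximal differed by −0.38 (SE 0.25, edgeR adjusted p = 0.534), which became −0.82 with an adjusted p of 0.0197 without medial pool 1. The crest and Schwann lineage gene sox10.S took the same course, at 0.501 and 0.540 CPM in distal, 9.57 and 5.70 CPM in medial, and 11 and 10.9 CPM in proximal. On the list of neural and Schwann markers 5 of 11 genes were named, as 9 copies. Lower in distal than in proximal were 8 of these, against 49.0% of named genes and 15.9% of all genes tested. The 9 copies summed to 11.3 and 12.4 CPM in the distal pools, 56.2 and 46.6 CPM in the medial pools, and 41.4 and 50.7 CPM in the proximal pools. The myelin gene mpz.S had no count in the distal pools or in medial pool 2 and 0.0734 CPM in medial pool 1. The more abundant of the gene IDs named sox2.L peaked in medial, at 1.08 and 0.473 CPM in distal, 11.2 and 10.7 CPM in medial, and 1.51 and 2.27 CPM in proximal. The part of these cells in the cdh19.S difference was not tested.

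**Figure D2:**
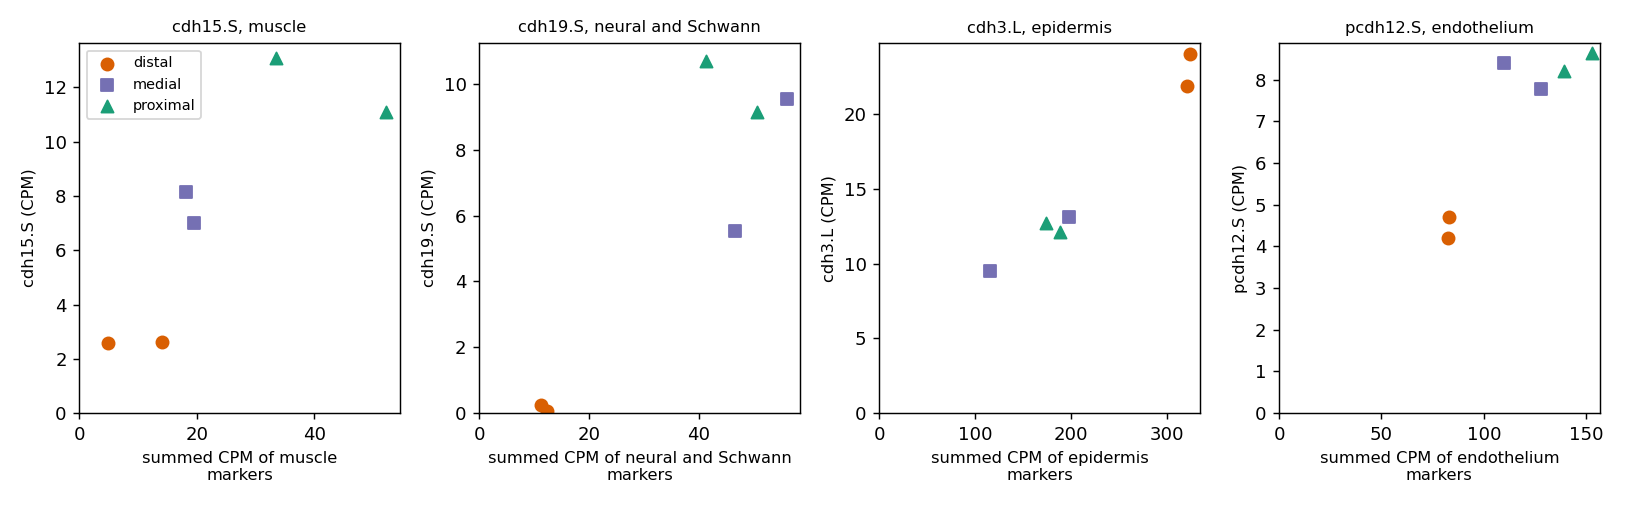
CPM of 4 members (vertical axes) against the summed CPM of the named markers of a cell type (horizontal axes) in each of the 6 libraries, with circles for distal, squares for medial and triangles for proximal. For cdh15.S with muscle and cdh19.S with neural and Schwann markers the distal pools lie lowest on both axes, and for cdh3.L with epidermal markers they lie highest on both. The pcdh12.S panel, with endothelial markers, has the distal pools at 4.71 and 4.19 CPM below all other pools.

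The remaining type II members were scarce, and cdh10 and cdh18 had their highest levels in proximal. cdh10.L and cdh10.S had no fragment in either distal pool, at most 2 in a medial pool, and 6 to 35 in the proximal pools. Proximal levels averaged 0.773 CPM for cdh10.L and 0.653 CPM for cdh10.S, so that distal was at least 3.82-fold and at least 3.22-fold lower, taking the floor of 3 counts in the shallower distal library (edgeR adjusted p = 0.00121 and 0.00137). Counted fragments gave a proximal to medial ratio of 48.5 for cdh10.L (95% interval of counting error 8.24 to 1960) and 11.8 for cdh10.S (3.68 to 60.6). The medial to proximal call of cdh10.S was absent with DESeq2 (adjusted p = 0.140). Without proximal pool 2 neither copy passed the filter on low counts, so neither was tested in any comparison. cdh18.S, a type II cadherin of brain, had 3 fragments in each distal pool, at the detection floor. Counted fragments gave a proximal to distal ratio of 6.42 (95% interval of counting error 2.74 to 18.4). cdh18.S stood at 0.164 ± 0.0548 CPM in distal, 0.383 ± 0.0287 CPM in medial and 1.08 ± 0.215 CPM in proximal. Its log2 fold change of −2.67 between distal and proximal (edgeR, SE 0.52, adjusted p = 0.00232) was not called without distal pool 1 (adjusted p = 0.0540). cdh7.L was under the filter on low counts, with no fragment in the distal pools, 7 and 4 fragments (0.257 and 0.145 CPM) in the medial pools, and 2 and 17 fragments (0.189 and 0.476 CPM) in the proximal pools. Its medial and proximal pools overlapped. The authors' deposited table lists cdh7.L at a log2 fold change of −5.15 for distal against proximal, with an adjusted p of 0.0438.

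To compare levels between genes, CPM was divided by exonic length in kilobases (FPKM). Summed over the type II copies named, FPKM was 15.2 and 14.6 in the distal pools, 18.5 and 17.3 in the medial pools, and 17.4 and 17.0 in the proximal pools. Which genes made up that sum differed far more than its size. The cdh20 copies made up 53.0 ± 1.22% of it in distal, 3.82 ± 0.195% in medial and 0.687 ± 0.203% in proximal, while cdh6 made up 40.6 ± 0.387%, 70.2 ± 1.57% and 74.2 ± 0.235% (SD, n = 2). cdh19.S contributed 0.269 ± 0.214% in distal, 10.7 ± 3.53% in medial and 14.7 ± 1.31% in proximal, and cdh22 had its largest share, 14.4 ± 2.12%, in medial. Type I copies summed to 15.9 ± 0.178 FPKM in distal, 15.1 ± 1.79 in medial and 25.5 ± 0.476 in proximal. The cdh15.L part of the type I sum, and so each share of it, is uncertain, as 57.1% of that copy's exonic length overlaps another gene. In that sum cdh3.L took 38.3 ± 2.04% in distal, 19.6 ± 2.07% in medial and 12.9 ± 0.718% in proximal, while the share of cdh2 was 51.8 ± 0.714%, 50.8 ± 0.916% and 60.5 ± 1.03%. These sums cover only members, all of them copies that carry a name, and the sums were not tested. Each copy was named because the authors had called it different between segments in these libraries. Unchanged cadherins are thus absent from the sums, so a make-up that shifts between segments was in part fixed by that choice.

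**Figure D3:**
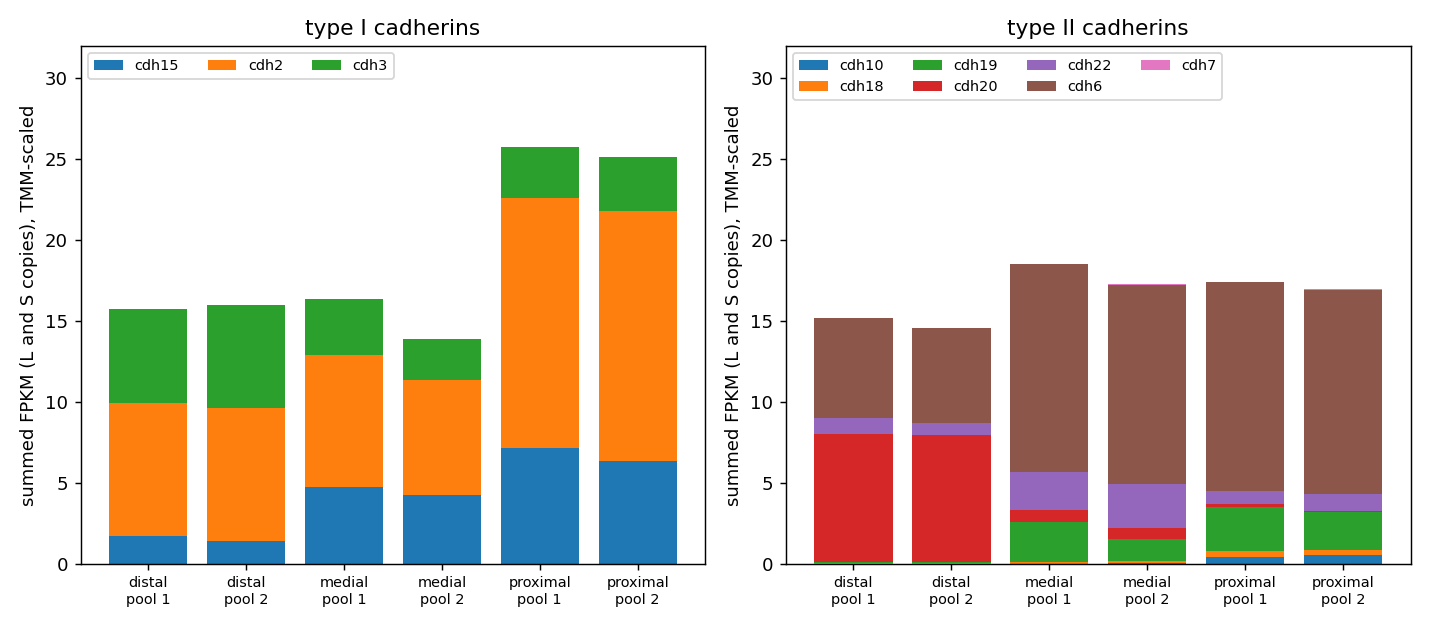
Summed FPKM (vertical axis, TMM-scaled, L and S copies of each gene together) of the named type I cadherins (left) and type II cadherins (right), with a stacked bar for each pool. In the type II bars cdh20 forms 52.1% and 53.9% of the distal pools and at most 3.95% of any other pool, while the bar heights range from 14.6 to 18.5 FPKM.

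Protocadherins among the members were mostly lower at the tip. Of 13 IDs, both named pcdh7.L included, 9 were lower and 3 higher in distal than in proximal. Against medial, 10 were lower and 1 higher. Of named genes 49.0% were lower and 39.3% higher in distal than in proximal, and 41.1% lower and 35.6% higher than in medial. Of all genes tested 15.9% were lower than in proximal and 12.9% lower than in medial. pcdh18.S, of the delta group of protocadherins, had the highest FPKM of all members in each segment, at 28.8 ± 1.15 in distal, 46.5 ± 1.13 in medial and 42.8 ± 2.96 in proximal (SD, n = 2). In CPM it measured 193 and 183 in the distal pools, 298 and 308 in the medial pools, and 265 and 292 in the proximal pools. The distal pools were below all others, by a log2 fold change of −0.69 against medial (edgeR, SE 0.10, adjusted p = 3.60e-04) and −0.57 against proximal (SE 0.10, adjusted p = 0.00103).

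pcdh9 is a delta protocadherin best known from the nervous system. Its L copy fell outward most steeply among the protocadherin members that were detected in every pool. pcdh9.L (gene16664, chromosome 2L, 127954712 to 127960667) had 3.05 and 2.50 CPM in the distal pools, 25.8 and 24.2 CPM in the medial pools, and 38.8 and 47.9 CPM in the proximal pools. No segments overlapped, and the log2 fold change was −3.95 for distal against proximal (SE 0.15, edgeR adjusted p = 1.43e-08), −3.14 for distal against medial (SE 0.16, adjusted p = 1.82e-07) and −0.81 for medial against proximal (SE 0.12, adjusted p = 0.00125). pcdh9.S was less abundant, at 1.24 ± 0.449, 4.29 ± 0.265 and 6.52 ± 0.403 CPM in distal, medial and proximal, with a log2 fold change between distal and proximal of −2.47 (edgeR, SE 0.25, adjusted p = 2.27e-05).

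pcdh8, whose *Xenopus* relative is paraxial protocadherin of the early embryo, was nearly undetected in distal. pcdh8.L had 0 fragments in distal pool 1 and 1 fragment in distal pool 2 (0.0675 CPM), 0.770 and 0.835 CPM in the medial pools, and 2.17 and 1.65 CPM in the proximal pools. The ratio of proximal to distal fragments, scaled for depth, was 68.7, with a 95% interval of counting error from 12 to 2750, and the edgeR adjusted p was 6.58e-05. pcdh8.S stood at 0.226 ± 0.0337 CPM in distal (6 and 3 fragments), 1.22 ± 0.120 CPM in medial and 1.53 ± 0.565 CPM in proximal (SD, n = 2). Its log2 fold change was −2.81 against proximal (SE 0.45, edgeR adjusted p = 5.99e-04) and −2.37 against medial (SE 0.46, adjusted p = 0.00288).

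pcdh7, NF-protocadherin in *Xenopus*, is known for adhesion in embryonic ectoderm and for axon outgrowth. pcdh7.L (gene2494, chromosome 1L) measured 9.93 and 9.12 CPM in the distal pools, 29.9 and 29.5 CPM in the medial pools, and 25.7 and 29.1 CPM in the proximal pools. The distal pools lay below all others, by −1.53 against proximal (SE 0.11, edgeR adjusted p = 1.83e-06) and −1.63 against medial (SE 0.11, adjusted p = 1.56e-06) on the log2 scale. pcdh7.S had 2.80 and 2.03 CPM in distal, 11.5 and 9.94 CPM in medial, and 5.95 and 6.92 CPM in proximal. Its medial pools were highest, with a log2 fold change of −2.12 for distal against medial (edgeR, SE 0.19, adjusted p = 1.34e-05). The medial to proximal change of 0.71 (SE 0.17, edgeR adjusted p = 0.0247) was not called with DESeq2 (adjusted p = 0.0705), without medial pool 1 (0.0634) or without either proximal pool (0.133 without pool 1, 0.0960 without pool 2). The other ID named pcdh7.L, gene39157, is a 259 base pair piece on a separate scaffold with 0.578 ± 0.244, 2.41 ± 0.0699 and 1.74 ± 0.463 CPM in distal, medial and proximal, and its FPKM is unreliable at that length. Its distal to proximal change of −1.59 (SE 0.36, edgeR adjusted p = 0.00591) was not called without distal pool 2 or proximal pool 2 (adjusted p = 0.0532 and 0.139).

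pcdh12.S encodes a protocadherin of endothelial cells in mammals. It measured 4.71 and 4.19 CPM in the distal pools, 8.40 and 7.77 CPM in the medial pools, and 8.22 and 8.65 CPM in the proximal pools. Only the distal pools stood apart, by a log2 fold change of −0.92 against proximal (edgeR, SE 0.16, adjusted p = 0.00111) and −0.85 against medial (SE 0.16, adjusted p = 0.00211). Endothelial markers (5 of 9 genes named, as 9 copies) summed to 82.9 and 82.3 CPM in the distal pools, 110 and 128 CPM in the medial pools, and 139 and 153 CPM in the proximal pools. Among those copies 8 were lower and egfl7.L was higher in distal than in proximal (log2 fold change 0.74, edgeR adjusted p = 3.37e-04), and all 9 named copies had counts in every pool. Of named genes 49.0% were lower and 39.3% higher in that comparison, and of all genes tested 15.9% and 13.6%. Against medial, 4 copies were lower in distal, egfl7.L was higher (1.56, edgeR adjusted p = 1.91e-06) and 4 were not called. The shares there were 41.1% lower and 35.6% higher among named genes, and 12.9% and 12.1% among all genes tested. The largest falls against medial were those of tal1.L (1.21 and 1.08 CPM in distal, 18.4 and 26 CPM in medial) and tal1.S (1.29 and 1.55, 20.7 and 24.6 CPM). cdh5, the endothelial cadherin outside the member rule, differed between medial and proximal (log2 fold change −0.54 for cdh5.L and −0.74 for cdh5.S, edgeR adjusted p = 0.0215 and 0.0130), where pcdh12.S had −0.07 (SE 0.15, adjusted p = 0.896). Between distal and medial, where pcdh12.S was called, cdh5.L had −0.05 and cdh5.S −0.19 (edgeR adjusted p = 0.8 and 0.439). The part of endothelial cells in the pcdh12.S difference was not tested.

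Some protocadherins were higher outside the proximal segment. pcdh1.L, the axial protocadherin of *Xenopus*, had 40.5 and 41.6 CPM in the distal pools, 47.5 and 45.1 CPM in the medial pools, and 26.3 and 24.9 CPM in the proximal pools. Its proximal pools were lowest, and the log2 fold change was 0.69 for distal against proximal (SE 0.09, edgeR adjusted p = 1.92e-04) and 0.86 for medial against proximal (SE 0.09, adjusted p = 1.35e-04). pcdh17.S, a delta protocadherin of brain, had 2.50 and 2.63 CPM in distal, 2.49 and 3.52 CPM in medial, and 0.945 and 1.12 CPM in proximal. Both of its changes against proximal, 1.26 for distal (SE 0.29, edgeR adjusted p = 0.00665) and 1.49 for medial (SE 0.28, adjusted p = 0.00583), lost their call without proximal pool 2 (adjusted p = 0.0563 and 0.0782), and 29.1% of its exonic length overlaps another annotated gene.

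pcdh10.L, or OL-protocadherin, peaked in medial at 7.08 and 6.46 CPM, against 3.25 and 3.92 CPM in the distal pools and 2.64 and 3.78 CPM in the proximal pools. The distal and proximal pools overlapped (log2 fold change 0.07, SE 0.22, edgeR adjusted p = 0.849). The difference from medial was −0.93 in distal (SE 0.20, edgeR adjusted p = 0.00619, and 0.104 without distal pool 1), and medial exceeded proximal by 1.00 (SE 0.20, adjusted p = 0.0100, and 0.0582 without proximal pool 1). pcdh20.L was highest at the tip, with 7.38 and 6.69 CPM in the distal pools, 4.0 and 2.58 CPM in the medial pools, and 3.97 and 3.47 CPM in the proximal pools. Its distal log2 fold change was 0.95 against proximal (SE 0.23, edgeR adjusted p = 0.00777) and 1.1 against medial (SE 0.22, adjusted p = 0.00345). Without distal pool 1 neither was called (edgeR adjusted p = 0.0827 and 0.0537), nor was the change against proximal without proximal pool 2 (0.103).

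**Figure D4:**
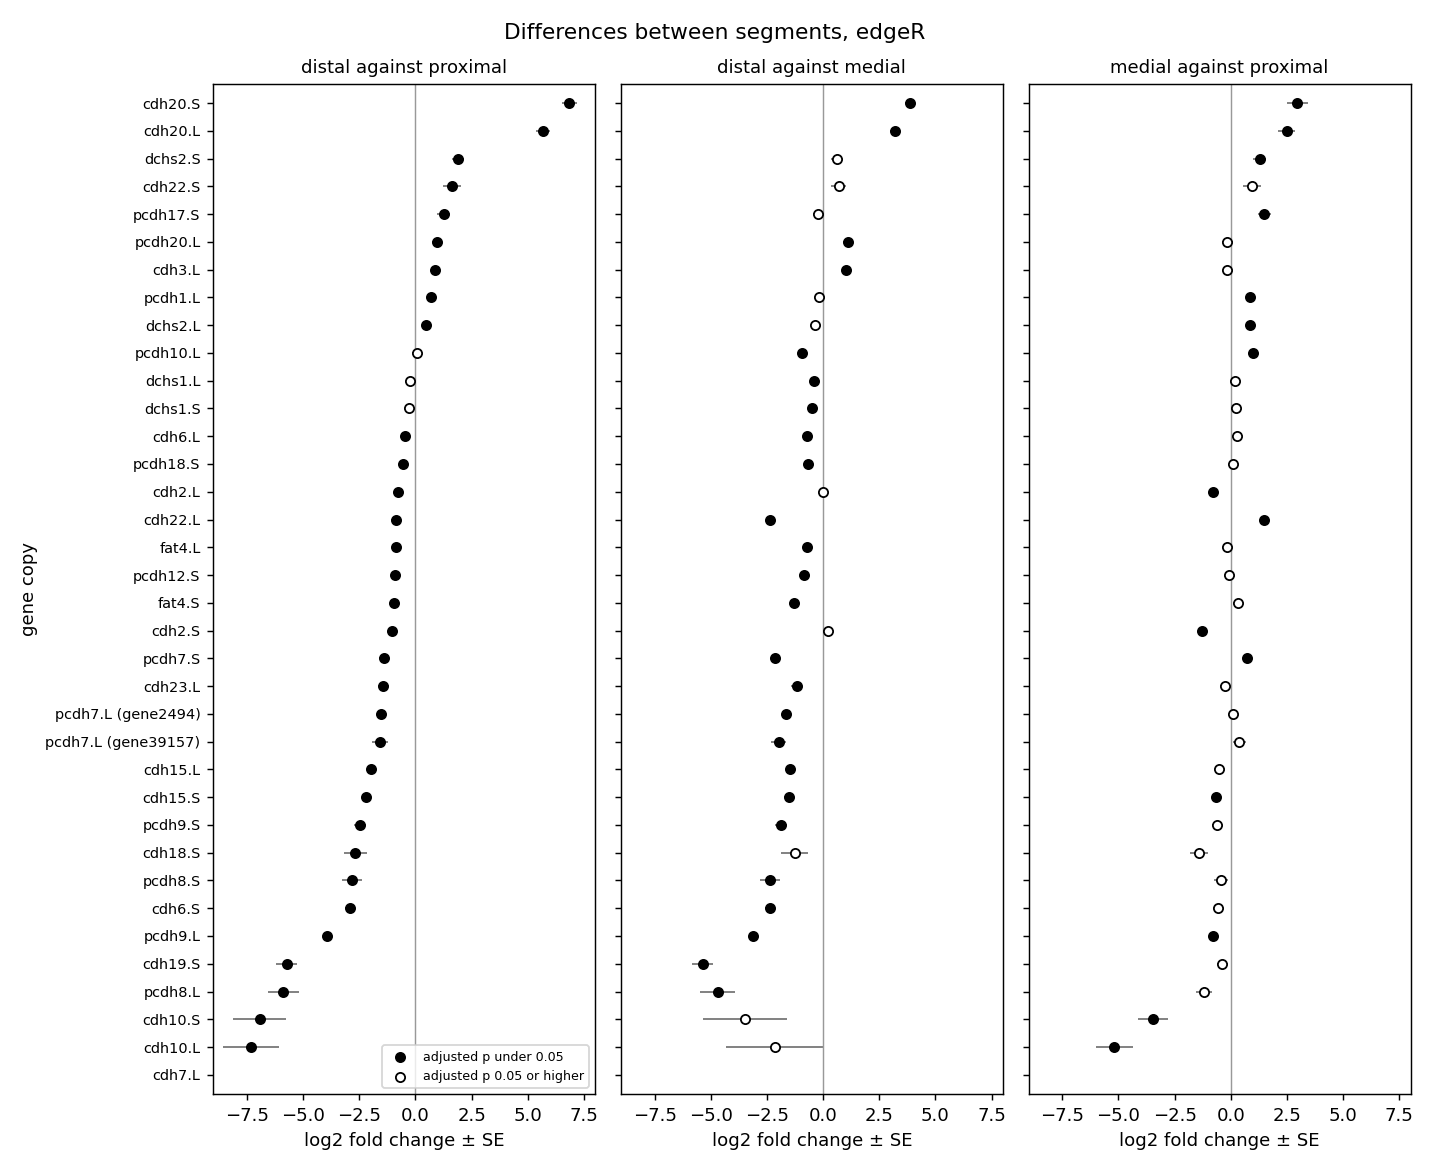
Log2 fold changes (horizontal axes) with their standard errors of the 35 tested gene IDs from edgeR, in one panel for each pair of segments, with filled points for an adjusted p under 0.05. Filled points number 32, 25 and 15 in the 3 panels, and 23, 21 and 6 of them lie below 0.

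The giant cadherins had distal to proximal changes between −0.97 (fat4.S) and 1.89 (dchs2.S) on the log2 scale. dchs1, a ligand of Fat4 in mouse, ranked directly after pcdh18.S in FPKM in every segment. dchs1.S measured 173 and 185 CPM in the distal pools, 270 and 228 CPM in the medial pools, and 204 and 226 CPM in the proximal pools. dchs1.L measured 138 and 145 CPM in distal, 202 and 174 CPM in medial, and 162 and 172 CPM in proximal. For both copies the distal pools lay lowest, below all proximal and medial pools. Distal was lower than medial by −0.48 for dchs1.S (SE 0.11, edgeR adjusted p = 0.00855) and −0.41 for dchs1.L (SE 0.10, adjusted p = 0.0113) on the log2 scale. Without distal pool 1 neither copy was called (edgeR adjusted p = 0.123 for dchs1.S and 0.140 for dchs1.L), and dchs1.L was also not called without distal pool 2 (0.0660) or medial pool 1 (0.0599). Against proximal neither passed the test, with −0.27 (SE 0.11, edgeR adjusted p = 0.0945) and −0.24 (SE 0.10, adjusted p = 0.0958). For dchs1.S this adjusted p was 0.0494 without medial pool 1.

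fat4, the receptor of that pair, was lower at the tip in both copies. fat4.S had 17.4 and 17.0 CPM in the distal pools, 49.1 and 34.4 CPM in the medial pools, and 30.7 and 36.0 CPM in the proximal pools. fat4.L had 45.4 and 45.9 CPM in distal, 86.7 and 61.3 CPM in medial, and 79.0 and 87.9 CPM in proximal. The distal pools were lowest for each copy, and the medial pools differed from each other and overlapped the proximal ones. The distal to proximal log2 fold change was −0.97 for fat4.S (SE 0.17, edgeR adjusted p = 0.00225) and −0.87 for fat4.L (SE 0.15, adjusted p = 0.00184), and against medial it was −1.28 (SE 0.17, adjusted p = 5.16e-04) and −0.70 (SE 0.15, adjusted p = 0.00796). The fat4.L change against medial was not called without distal pool 1 or 2 (edgeR adjusted p = 0.0735 and 0.0521). Medial against proximal was not called for either copy, yet without medial pool 1 fat4.L was lower in medial (−0.45, edgeR adjusted p = 0.0179), and without medial pool 2 fat4.S was higher there (0.55, adjusted p = 0.00708).

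dchs2 had its lowest level in proximal. dchs2.S measured 5.67 and 6.48 CPM in the distal pools, 4.59 and 3.34 CPM in the medial pools, and 1.04 and 1.90 CPM in the proximal pools, with no overlap. Against proximal the log2 fold change was 1.89 in distal (SE 0.27, edgeR adjusted p = 3.06e-04) and 1.28 in medial (SE 0.27, adjusted p = 0.0137), the second of which was not called without proximal pool 1 (adjusted p = 0.0634). Distal against medial was not called (0.61, edgeR adjusted p = 0.0830), but it was without medial pool 1 (0.85, adjusted p = 0.0214) and, near the threshold, with library totals (0.73, adjusted p = 0.0410) or with no filter (0.61, adjusted p = 0.0245). dchs2.L stood at 10.2 ± 0.889 CPM in distal, 13.1 ± 2.65 CPM in medial and 7.29 ± 0.0252 CPM in proximal (SD, n = 2). Its medial to proximal change was 0.84 (SE 0.16, edgeR adjusted p = 0.00787, and 0.0843 without proximal pool 2), and its distal to proximal change of 0.49 (SE 0.17, adjusted p = 0.0471) was not called with DESeq2 (0.128) or without any single one of the distal or proximal pools (0.0808 to 0.278). Distal to medial, dchs2.L had −0.35 (edgeR adjusted p = 0.136), called only without medial pool 2 (−0.54, adjusted p = 0.0201). cdh23.L, the tip-link cadherin of inner ear hair cells, was lower in distal (2.00 ± 0.0606 CPM) than in medial (4.53 ± 1.22 CPM) and proximal (5.31 ± 0.692 CPM). Its log2 fold change was −1.43 against proximal (SE 0.25, edgeR adjusted p = 0.00114) and −1.17 against medial (SE 0.25, adjusted p = 0.00495, and 0.0556 without distal pool 1).

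Both L and S IDs were members for 12 genes, which form 13 pairs because pcdh7.L has 2 IDs. Between distal and proximal both copies were called in 12 of the 13 pairs, with the same sign in 11 and opposite signs in cdh22. Of all 1223 L and S pairs of named gene IDs, 82.6% had both copies called in this comparison, and 91.2% of those had the same sign. Between distal and medial both were called in 9 pairs, against 67.4% of the named pairs, and between medial and proximal in 4, against 20.9%. The sign was the same each time, as it was in 92.1% and 94.1% of the named pairs with both copies called. The ratio of L to S in FPKM moved between segments for several genes. For cdh22 it was 1.11 in distal, 8.79 in medial and 6.52 in proximal, and for cdh6 it was 7.26, 2.38 and 1.37. For pcdh8 it was 0.124, 0.547 and 1.04, although the distal value rests on a single L fragment. The dchs1 ratio stayed between 0.779 and 0.813 in all 3 segments. Differences between copies were not tested, and fragments mapping equally well to both copies were not counted, which can lower either level.

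**Figure D5:**
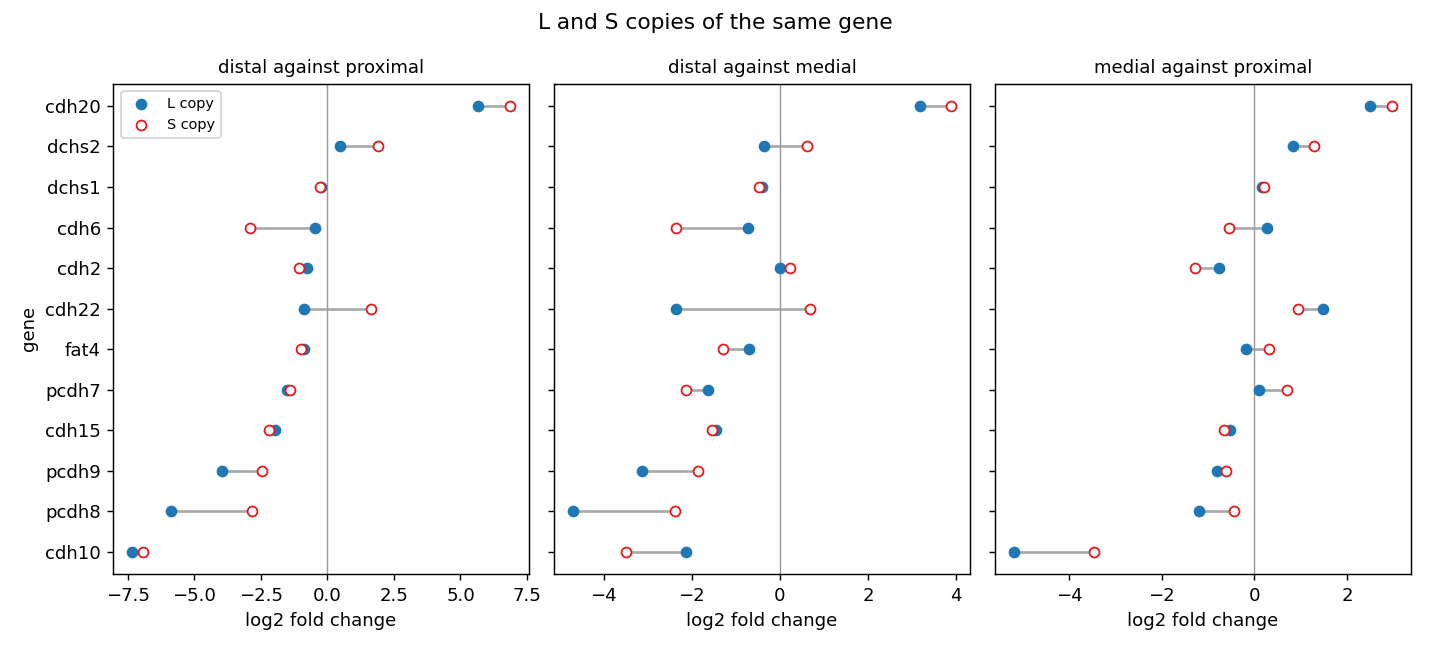
Log2 fold changes (horizontal axes) of the L copy (filled) and the S copy (open) of 12 genes in the 3 comparisons, joined by a line, with gene2494 shown for pcdh7.L. The points of cdh22 lie on opposite sides of 0 in distal against proximal (−0.87 for L and 1.63 for S), and those of dchs1 nearly coincide.

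The intracellular partners of cadherins were described from a list of 14 catenins and related proteins, of which 4 genes were named, as 7 copies: jup (plakoglobin), pkp1 and pkp3 (desmosomal plakophilins) and pkp4 (a p120 catenin relative). All 7 were called higher in distal than in medial, pkp3.S near the threshold (log2 fold change 0.86, SE 0.24, edgeR adjusted p = 0.0472). Their summed level was 313 and 319 CPM in the distal pools and 205 and 153 CPM in the medial pools. In the proximal pools it was 191 and 193 CPM, so that medial pool 2 had the lowest sum. Not one copy was called between medial and proximal, beside 26.6% of named genes and 7.6% of all genes tested. Against proximal 4 were also higher in distal, beside 39.3% of named genes and 13.6% of all genes tested. pkp4.S measured 53.6 and 54.1 CPM in the distal pools, 28.4 and 26.3 CPM in the medial pools, and 25.6 and 22.5 CPM in the proximal pools. Its distal pools lay above all others, with a log2 fold change of 1.18 against proximal (edgeR, SE 0.10, adjusted p = 5.64e-06). The median distal to medial log2 fold change was 0.80 over these 7 copies, beside −0.19 over the named genes, of which 35.6% were called higher in distal, and 0.01 over all genes tested, of which 12.1% were. The epidermal marker sum given above was highest in the distal pools too, and its part in this difference was not tested.

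Among desmosomal genes (3 of 7 named, as 5 copies), dsp.L and dsp.S were higher in distal than in proximal, with log2 fold changes of 0.71 (SE 0.20, edgeR adjusted p = 0.0346) and 0.83 (SE 0.21, adjusted p = 0.0288). By contrast the desmosomal cadherin dsg2.S was lower in distal (−1.57, SE 0.21, edgeR adjusted p = 1.89e-04). dsg2.L had 0.17 (SE 0.12, edgeR adjusted p = 0.349) and dsc3.L 0.55 (SE 0.31, adjusted p = 0.228). Against medial 3 of the 5 copies were higher in distal, dsg2.L (0.46, edgeR adjusted p = 0.0187) and dsc3.L (1.00, adjusted p = 0.0481) among them, and dsg2.S was lower. Of named genes 35.6% were higher and 41.1% lower than in medial, and of all genes tested 12.1% and 12.9%. Of 14 planar polarity partners 4 genes were named, as 6 copies, with 2 higher and 2 lower in distal than in proximal. Of named genes 39.3% were higher and 49.0% lower there, and of all genes tested 13.6% and 15.9%. prickle1.S was higher (1.37, SE 0.11, edgeR adjusted p = 4.53e-06), and prickle2.L and prickle2.S were lower (−0.99 and −0.75, adjusted p = 4.26e-04 and 0.00596). fjx1, the kinase that modifies Fat and Dachsous repeats, had 0.18 for fjx1.L and 0.21 for fjx1.S against proximal (edgeR adjusted p = 0.392 and 0.247), and exceeded medial by 0.64 and 0.61 (adjusted p = 0.00733 and 0.00426).

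The transcription factors known to repress cadherin genes were named for 6 of 7 listed genes, as 9 IDs. Between distal and proximal 7 of these, both IDs named zeb2.S among them, were lower and 2 higher in distal. Of named genes 49.0% were lower and 39.3% higher there, and of all genes tested 15.9% and 13.6%. zeb2.L had the largest fall, with 0.876 and 0.743 CPM in the distal pools, 6.02 and 7.04 CPM in the medial pools, and 7.65 and 9.07 CPM in the proximal pools, a log2 fold change between distal and proximal of −3.36 (edgeR, SE 0.23, adjusted p = 1.06e-06). The higher ones were zeb1.L (0.80, SE 0.10, edgeR adjusted p = 8.13e-05) and snai2.L (0.37, SE 0.12, adjusted p = 0.0367). nectin4.S, the single nectin named of 4 listed, stood at 11.5 and 10.5 CPM in the distal pools, 7.67 and 4.65 CPM in the medial pools, and 4.63 and 5.94 CPM in the proximal pools (distal over proximal 1.02 on the log2 scale, edgeR, SE 0.23, adjusted p = 0.00718). As for the members, only IDs already called by the authors carry names, so these counts describe the named copies and not the whole lists.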

How the data were processed

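RNA was measured in 6 libraries (1 ug of total RNA each, Illumina TruSeq kit, per the labels' protocols). The submitters' processing notes list Trimmomatic 0.39, HISAT2 2.2.1, SAMtools 1.10, featureCounts 2.0.1 and DESeq2 1.30.1, and the genome build is not given in the sources used here. The authors deposited raw fragment counts per gene, made with featureCounts in paired-end mode without strand, per the file headers, together with other values such as exonic lengths, and a table of counts per assignment category. Fragments mapping to several places or genes were not counted at those default settings. A further table deposited by the authors holds log2 fold changes, p-values, a mean normalised signal and a test score for genes with an adjusted p-value under 0.05, and is the source of the gene names. Of the 36 member IDs, 31 had an Entrez identifier, of which 30 were found with the same symbol in RefSeq's gene table of assembly Xenopus_laevis_v10.1.

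Genes were filtered with filterByExpr (minimum count 10, minimum total 15, by segment), which kept 27007, scaled with TMM and tested with edgeR 4.0.16 under R 4.3.3 (robust quasi-likelihood test, segment as the only factor, all 6 libraries, 3 residual degrees of freedom). P-values were adjusted over all genes tested by the Benjamini-Hochberg method. Signs run as the first-named segment over the second, so the signs of the authors' fold changes were reversed. The fits were also run on simulated counts, with the same spread for all genes and changes set only in genes above 1 CPM. That run does not cover scarcer members. Alternatives were RLE factors, library totals, no filter on low counts, the pool number as a replicate block, DESeq2 1.42.0 and leaving out each library. Most members called with an absolute log2 fold change of at least 1 in a comparison and a mean of at least 1 CPM in a segment are given with every library's value. Exceptions, given by mean and SD, are cdh15.L, cdh18.S, cdh23.L, pcdh7.L (gene39157), pcdh8.S and pcdh9.S. Other members are mostly given by mean and SD. Members and gene lists were chosen with earlier results of these data known. Intervals and the floor of 3 counts per library cover counting error only, since amplified fragments are not independent molecules. Levels of annotated neighbours that overlap on either strand cannot be told apart.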

Additional observations from a re-analysis of the deposited data

How the results depend on the processing

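With 2 pools per segment, leaving out 1 library leaves a segment with a single library that is assumed to vary like the others. The number of genes called then ranged from 4598 to 9378 for distal against proximal (7975 with all libraries), from 3188 to 6713 for distal against medial (6753) and from 996 to 2617 for medial against proximal (2053). The cadherin and protocadherin copies called ranged from 24 to 34 (32), from 19 to 27 (25) and from 7 to 17 (15), the low value of 7 being that without proximal pool 2. Under every setting tried, 22 of the 32, 19 of the 25 and 5 of the 15 kept their call, counting cdh10.L and cdh10.S as lost because neither passed the filter on low counts without proximal replicate 2. Sign changes were seen only for values not called. Leaving out 1 library at a time, the distal to proximal value of pcdh10.L ranged from −0.09 to 0.42 (−0.04 without distal replicate 2), and the distal to medial values of cdh2.L, cdh10.L and pcdh17.S ranged from −0.05 to 0.05, from −2.91 to 0.00 and from −0.46 to 0.04. The medial to proximal values ranged from −0.39 to 0.07 for cdh3.L, from −0.45 to 0.05 for fat4.L, from −0.49 to 0.14 for pcdh20.L and from −0.66 to 0.12 for pcdh8.S. With library totals cdh2.L had 0.11 between distal and medial. Their cause was not tested. RLE factors changed no call of a member. Library totals moved the median distal to medial log2 fold change of all genes by 0.12, and the calls there to 5280 higher and 2730 lower, against 3267 and 3486 with TMM. DESeq2 called 31, 25 and 12 members, and no filter on low counts 33, 27 and 20. The sample titles carry the tag Black for pool 1 and Red for pool 2 of every segment. The labels do not say that a pool number or tag marks the same limbs in each segment, and the correlation of same-numbered pools' deviations was 0.03, 0.05 and 0.20 in the 3 comparisons. Taking pool numbers as a replicate block, 8812, 7864 and 2629 genes and 32, 25 and 17 members were called, so no member lost its call, and cdh15.L and pcdh8.L gained one between medial and proximal (edgeR adjusted p = 0.0208 and 0.0439).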

Other observations

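A further 13 gene IDs carried a provisional cadherin or protocadherin name and fall outside the rule for members. They are described here after their values had been seen, and like the members they are named only because the authors had called them. All 6 of the clustered gamma protocadherins among them, named pcdhgb5 or pcdhgc5, were lower in distal than in proximal and lower than in medial. None was called between medial and proximal, beside 26.6% of named genes and 7.6% of all genes tested. Of all named genes 49.0% were lower in distal than in proximal and 41.1% lower than in medial, and of all genes tested 15.9% and 12.9%. The most abundant, LOC108712418 (pcdhgc5), measured 3.34 and 4.46 CPM in the distal pools, 8.91 and 10.2 CPM in the medial pools, and 8.97 and 11.5 CPM in the proximal pools (distal over proximal −1.45 on the log2 scale, edgeR, SE 0.19, adjusted p = 1.70e-04). Fragments that fit more than 1 gene were not counted, so the levels of clustered genes are uncertain.

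Both IDs provisionally named pcdh19, a delta protocadherin, were higher in distal than in proximal. LOC108700113 had 60.4 and 58.2 CPM in the distal pools, 30.8 and 34.5 CPM in the medial pools, and 17.1 and 18.3 CPM in the proximal pools, a stepwise rise outward (1.73 for distal against proximal, SE 0.10, edgeR adjusted p = 3.04e-07). LOC108698411 stood at 38.0 and 37.5 CPM in the distal pools and 39.0 and 39.5 CPM in the medial pools, against 16.7 and 16.8 CPM in the proximal pools. Its distal to medial difference was −0.06 (SE 0.09, edgeR adjusted p = 0.691). The ID provisionally named cdh26 was higher in distal too, with 23.8 and 31.9 CPM in the distal pools, 13.9 and 9.36 CPM in the medial pools, and 9.35 and 11.3 CPM in the proximal pools (1.39 for distal against proximal, SE 0.22, edgeR adjusted p = 0.00187). LOC108704336, provisionally named dchs1, was also higher in distal, unlike the dchs1 members. It had 3.38 and 2.97 CPM in distal, 2.53 and 1.31 CPM in medial, and 1.04 and 0.70 CPM in proximal (1.99 for distal against proximal, SE 0.37, edgeR adjusted p = 0.00177). The ID named cdh23 and both named pcdh11x were lower in distal than in medial (−0.61, −1.14 and −2.61, edgeR adjusted p = 0.0242, 0.00598 and 1.43e-06).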
